A study of Mus musculus with 6 samples.

Results

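KLHL24, CREBRF, GLCCI1, GRAMD1C, GTF2H2B, LRRC31 and APOLD1 are human genes whose transcripts stood higher, step by step with dose, in human lung tumours grown in mice given an ALK inhibitor. The 7 genes were chosen by their measured rise in these same arrays, from vehicle through 4 mg/kg to 20 mg/kg, so their dose differences are given as a description and without a test. They are 7 of 19775 genes with a probe set of their own on the array, and 19 of its 54675 probe sets are annotated to 1 of them alone. A further 4 probe sets are shared between GTF2H2B or APOLD1 and other genes and are described apart.

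The tumours were grown under the skin of SCID mice, which lack mature lymphocytes, from NCI-H2228, a single human lung adenocarcinoma line with an EML4-ALK fusion. Mice received vehicle alone (0 mg/kg), or 4 or 20 mg/kg of CH5424802, the ALK inhibitor also called alectinib, by mouth, and tumours were lysed 6 h later. Each group has 2 arrays of total RNA, and all tumours share the line and the host strain. Whether both arrays of a group come from different mice is not stated, so the errors and p-values reflect array-to-array spread, which may be technical. The labels used here state no animal age, and they name mouse as the organism while the probe sets are human.

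The EML4-ALK fusion kinase drives the RAS-ERK, PI3K-AKT and JAK-STAT3 pathways in such cells. Among other things AKT keeps FOXO transcription factors out of the nucleus, so an ALK inhibitor can both lower transcripts that ERK sustains and raise transcripts that growth signalling holds down. The 7 genes do not form a known pathway. KLHL24 is a kelch protein that brings substrates to the CUL3 ubiquitin ligase, and keratin 14 is its known target in skin. CREBRF binds the stress transcription factor CREB3 and lowers its activity. GLCCI1 was first described in mouse thymocytes as a transcript induced by glucocorticoids. GRAMD1C is a membrane protein of the endoplasmic reticulum that carries cholesterol from the cell surface. GTF2H2B is a near-identical copy of GTF2H2, which encodes a subunit of the transcription and DNA repair complex TFIIH. LRRC31 is a leucine-rich repeat protein of epithelia that IL-13 induces in the oesophagus. APOLD1 belongs to the apolipoprotein L family and is known from blood vessel endothelium.

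All values are log2 of the deposited intensities, where 1 unit is a doubling, and the lowest value on every array is 2.19. The 11 epithelial and lung tumour markers checked, EPCAM, CDH1 and NKX2-1 among them, were all bright enough to test. At 20 mg/kg 1 of them fell, the keratin KRT18 (log2 -1.54, SE 0.18, limma adjusted p = 0.0416), and none rose. An unadjusted p under 0.05 was reached by 5 of the 11, beside 2486 of all 10271 genes tested. KRT8 and KRT7 were at -0.88 and -0.92 (adjusted p = 0.0529 and 0.163), EPCAM at 0.50 (adjusted p = 0.104) and NKX2-1 at 0.10 (adjusted p = 0.466). The summed intensity of the 11 was 101000 to 113000 with vehicle, 107000 to 109000 at 4 mg/kg and 90700 to 97700 at 20 mg/kg, and its part in the results was not tested. Of 15 endothelial markers, 11 lay within 1 unit of the lowest value on every array, CDH5 and VWF among them. In a tumour sample, fewer cells of a type and less RNA per cell cannot be told apart. Of 3 control probe sets for 18S ribosomal RNA, the brightest, at the 5′ end, had intensities of 1713 and 4058 with vehicle, 489 and 374 at 4 mg/kg, then 573 and 637 at 20 mg/kg. The middle set likewise read higher in both vehicle arrays than in all treated ones, while the 3′ set read 65 and 453 with vehicle and 43 to 48 in the treated arrays, so there vehicle replicate 2 stood far above the rest. Their part in the differences from vehicle was not tested. The group means behind the step from 4 to 20 mg/kg leave out the vehicle arrays. Its errors and calls do not, since they pool the spread of all arrays, and the arrays may have been normalized together.

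KLHL24 had a graded pattern in its brightest probe set, while its next brightest set stood higher only at 20 mg/kg. The brightest set read 9.44 and 9.49 with vehicle, 10.82 and 10.80 at 4 mg/kg, then 12.25 and 12.37 at 20 mg/kg. The arrays of a group lay within 0.13 of each other and no groups overlapped. Its level was 2.53-fold that of vehicle at 4 mg/kg (log2 1.34, SE 0.05, n = 2 arrays per group) and 7.16-fold at 20 mg/kg (log2 2.84, SE 0.05). Each SE is the moderated standard error of limma, a linear model that pools the spread of all 6 arrays.

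CREBRF ran close beside it at a lower reading. Its brightest probe set gave 7.99 and 7.91 with vehicle, 9.04 and 9.08 at 4 mg/kg, then 10.38 and 10.28 at 20 mg/kg, again with no overlap. The differences from vehicle were log2 1.12 and 2.38 (SE 0.05 for each), or 2.17-fold and 5.21-fold.

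LRRC31, with 1 probe set, read 6.82 and 6.42 with vehicle, 7.78 in both 4 mg/kg arrays and 9.0 and 9.11 at 20 mg/kg. The 4 mg/kg arrays are equal to within 1e-06 units, as the summary method of the array values can give, so their agreement understates the spread. The differences from vehicle were log2 1.16 and 2.44 (SE 0.15), or 2.24-fold and 5.41-fold.

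GLCCI1 had most of its difference in the second step. Its brightest probe set read 9.09 and 9.32 with vehicle, 9.59 and 9.94 at 4 mg/kg, then 11.78 and 11.74 at 20 mg/kg. The groups did not overlap, but the 4 mg/kg arrays stood nearer to vehicle than to 20 mg/kg. The log2 differences from vehicle were 0.56 and 2.55 (SE 0.16), or 1.48-fold and 5.87-fold.

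APOLD1 had the same shape. It read 5.56 and 6.06 with vehicle, 6.18 and 6.98 at 4 mg/kg, then 8.79 and 8.80 at 20 mg/kg. The 4 mg/kg arrays lay 0.80 apart and the lower of them only just above vehicle replicate 2. The difference at 4 mg/kg was log2 0.77 (SE 0.35), and it was 0.37 without 4 mg/kg replicate 2 but 1.17 when replicate 1 was left out instead. At 20 mg/kg it was log2 2.98 (SE 0.35), or 7.90-fold, and the step from 4 to 20 mg/kg, 2.22, ranked first among all 10271 genes tested.

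GRAMD1C was the dimmest of the 7. It read 3.14 and 3.16 with vehicle, 4.12 in both 4 mg/kg arrays and 5.62 and 6.60 at 20 mg/kg. Its mean over all arrays, 4.46, passed the minimum of 4 used for testing through the 20 mg/kg arrays. The 4 mg/kg arrays are equal to within 1e-06 units, as in LRRC31, so their agreement understates the spread. The 20 mg/kg arrays differed by 0.99, the widest gap of any group among the 7 brightest sets, yet both stood above every other array. Vehicle lay within 1 unit of the lowest value, where differences may be understated. The measured differences from vehicle were log2 0.96 and 2.96 at 4 and 20 mg/kg (SE 0.36). With vehicle set 1 unit above the lowest value, the group means were 1.90-fold and 7.54-fold vehicle. These folds are not lower bounds, since they leave out the spread between arrays. From the dimmer 20 mg/kg array alone the log2 difference was 2.46, and from the brighter one 3.45. With log2(value + 16), which damps dim probe sets, the differences from vehicle were 0.42 and 1.78.

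GTF2H2B was also dim. It read 4.02 and 3.95 with vehicle, 5.32 and 5.17 at 4 mg/kg, then 6.89 and 6.37 at 20 mg/kg, without overlap. The differences from vehicle were log2 1.25 and 2.64 (SE 0.20), or 2.38-fold and 6.23-fold, and 0.76 and 1.85 with log2(value + 16).

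**Figure D1:**
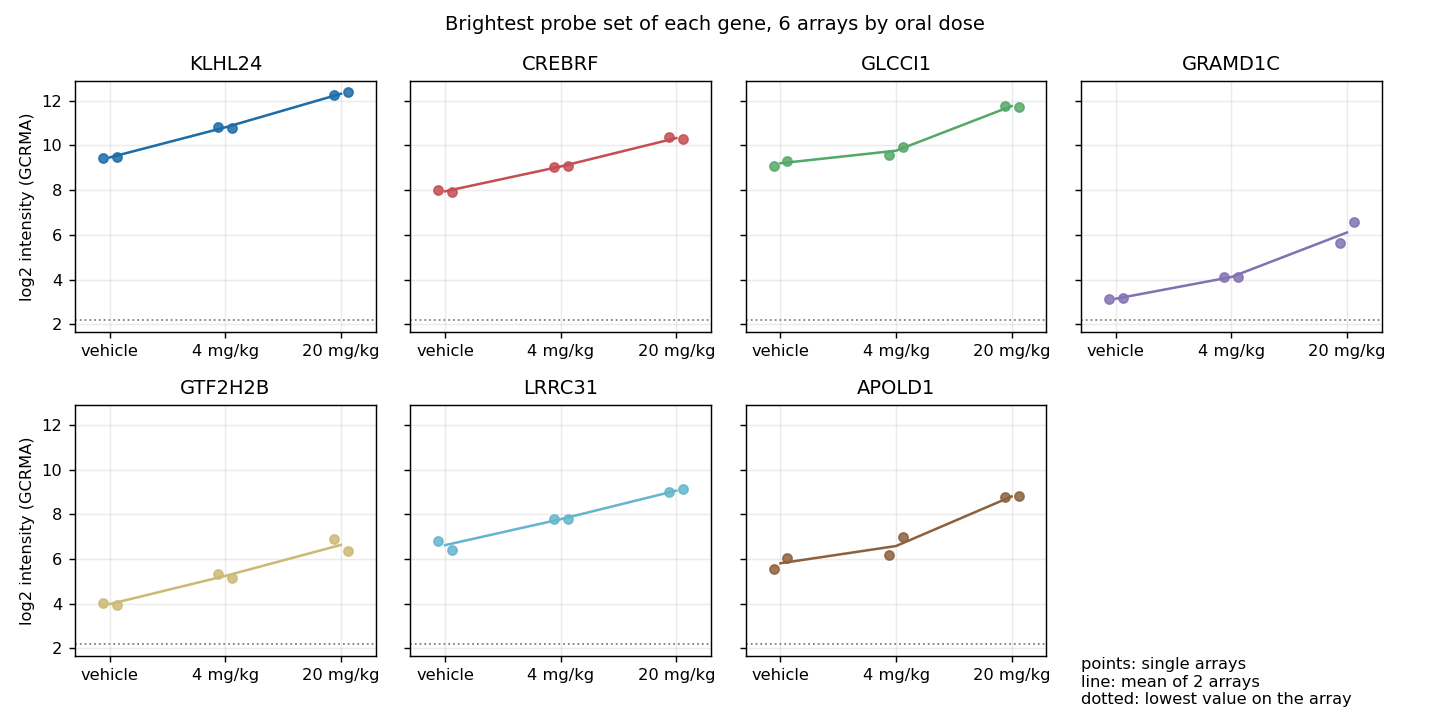
Log2 intensity of the brightest probe set of each gene in the 6 arrays (points) with group means (lines), by oral dose at 6 h; the dotted line is the lowest value on the array, 2.19. In all 7 panels both 20 mg/kg points lie above both 4 mg/kg points, which lie above both vehicle points, and the widest gap is that of GRAMD1C at 20 mg/kg, 0.99.

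By the brightest probe set, 7 of 7 genes had their arrays in rising dose order with no overlap between groups, as they were chosen to have. Of all genes tested, 4.61% had that order. The 7 ranked between 3 and 13 of 10271 genes by their difference between 20 mg/kg and vehicle, but between 101 and 985 by their difference between 4 mg/kg and vehicle. The median log2 difference of the 7 was 1.12 at 4 mg/kg and 2.64 at 20 mg/kg, beside 0.00 over all genes tested for both. These comparisons share their vehicle arrays.

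The brightest probe sets of the genes fell into 2 shapes by the sizes of their steps. In KLHL24, CREBRF, GTF2H2B and LRRC31 the second step exceeded the first by 0.11 to 0.17 log2 units, so between 46.9% and 47.7% of the full log2 difference was present at 4 mg/kg. In GLCCI1, GRAMD1C and APOLD1 the second step exceeded the first by 1.43, 1.03 and 1.45 units. There 22.0%, 32.6% and 25.7% of it was present at 4 mg/kg. Other probe sets of the same genes did not keep to this split. In 227525_at of GLCCI1 47.3% was present at 4 mg/kg, and in 221985_at of KLHL24 3.3%. The second step was the larger in the brightest set of 7 of 7 genes. It was the larger in 25.7% of the 382 tested genes that stood at least 1 unit above vehicle at 20 mg/kg. The 7 were chosen by their graded rise in these arrays, so their excess over that share is not a separate result. The steps share the 4 mg/kg arrays, so an error in these moves them in opposite directions.

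**Figure D2:**
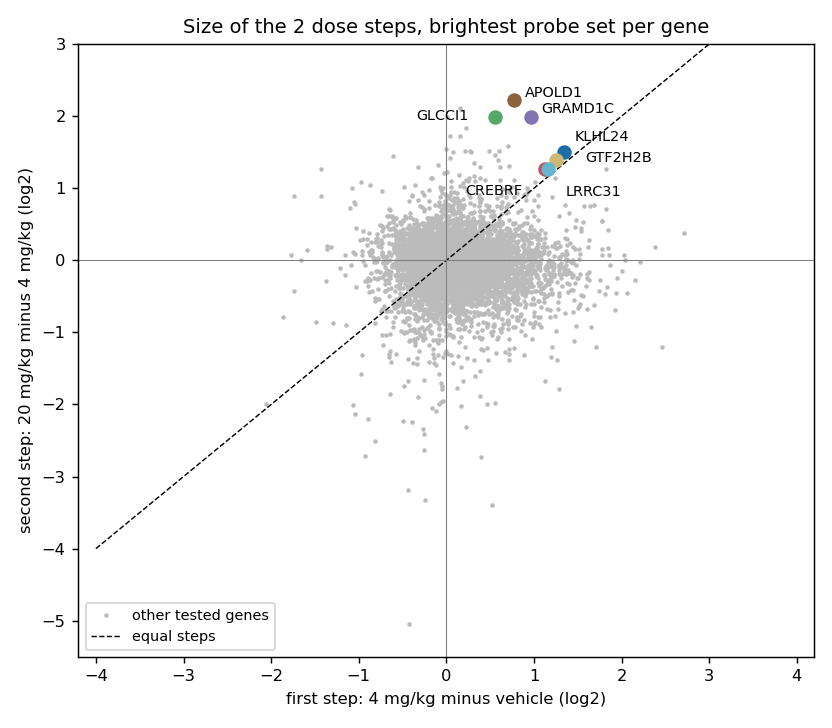
Log2 difference between 4 mg/kg and vehicle (horizontal) against that between 20 and 4 mg/kg (vertical) for the brightest probe set of each gene tested. The 7 genes are coloured and a dashed line marks equal steps. KLHL24, CREBRF, GTF2H2B and LRRC31 lie within 0.17 units of the line, while GLCCI1, GRAMD1C and APOLD1 lie 1.03 to 1.45 units above it.

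The probe sets of a gene did not all agree, at either dose. KLHL24, CREBRF and GLCCI1 have 5 probe sets each, and GRAMD1C, GTF2H2B, LRRC31 and APOLD1 have 1 each. Of the 19 sets, 17 had a mean level of at least 4, the minimum used for testing. Over all 19, 16 had both 20 mg/kg arrays above both vehicle arrays and 17 had both above the 4 mg/kg arrays, while 10 had both 4 mg/kg arrays above both vehicle arrays. The shares of all probe sets with such separations between pairs of groups were not computed, so these counts only describe the sets of the chosen genes. The full rising order held in 10 of the 19, all with a mean of at least 4. Of these 10, 7 are the brightest sets, which have that order through the choice of the genes. The others are 221986_s_at and 242088_at of KLHL24 and 227525_at of GLCCI1. Of all single-gene probe sets with such a mean on the array, 4.27% had that order.

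In KLHL24, 4 of the 5 sets stood 1.89 to 3.74 log2 units above vehicle at 20 mg/kg. The next brightest set, 221985_at, read 9.84 and 9.92 with vehicle, 9.75 and 10.13 at 4 mg/kg, then 11.99 and 11.56 at 20 mg/kg. It stood higher only at 20 mg/kg: its 4 mg/kg arrays straddled those of vehicle, with a difference of 0.06. The set 221986_s_at differed from vehicle by 0.59 and 2.49, and 242088_at by 2.0 and 3.74. The vehicle arrays of 242088_at, at 6.49 and 4.74, lay 1.75 apart. The fifth set, 206551_x_at, whose name marks it as prone to cross-hybridise, read 6.92 in 5 arrays and 7.12 in 20 mg/kg replicate 1.

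In CREBRF the difference at 20 mg/kg reached at least 1 unit in 4 of 5 sets and the difference at 4 mg/kg only in the brightest. The set 235556_at read 7.79 and 7.37 with vehicle, 7.32 and 7.58 at 4 mg/kg, then 8.49 and 8.69 at 20 mg/kg, differences of -0.13 and 1.02. The set 225957_at differed from vehicle by 0.31 and 2.11, and the dim 238476_at by 0.13 and 1.16. The set 1554229_at read 7.10 and 7.70 with vehicle, 6.97 and 6.87 at 4 mg/kg, then 7.99 and 7.69 at 20 mg/kg, so its 20 mg/kg arrays overlapped those of vehicle.

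GLCCI1 had the largest difference of any of the 19 sets. Its set 227525_at read 7.92 and 7.11 with vehicle, 9.23 and 9.62 at 4 mg/kg, then 11.64 and 11.47 at 20 mg/kg. This is 3.75-fold vehicle at 4 mg/kg and 16.4-fold at 20 mg/kg, with 47.3% of the log2 difference present at the lower dose. The sets 225700_at and 1560316_s_at stood 2.05 and 1.48 above vehicle at 20 mg/kg but differed from vehicle by 0.06 and 0.24 at 4 mg/kg. The last set, 1560315_at, lay at the lowest value on all 6 arrays and carries no information. The share of the difference present at 4 mg/kg therefore depended on the probe set: over the 12 sets of KLHL24, CREBRF and GLCCI1 that stood at least 1 unit above vehicle at 20 mg/kg it ran from -12.5% to 53.6%. In 6 of these 12 the 4 mg/kg difference was under 0.35. Which transcript forms the sets detect was not analysed here.

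**Figure D3:**
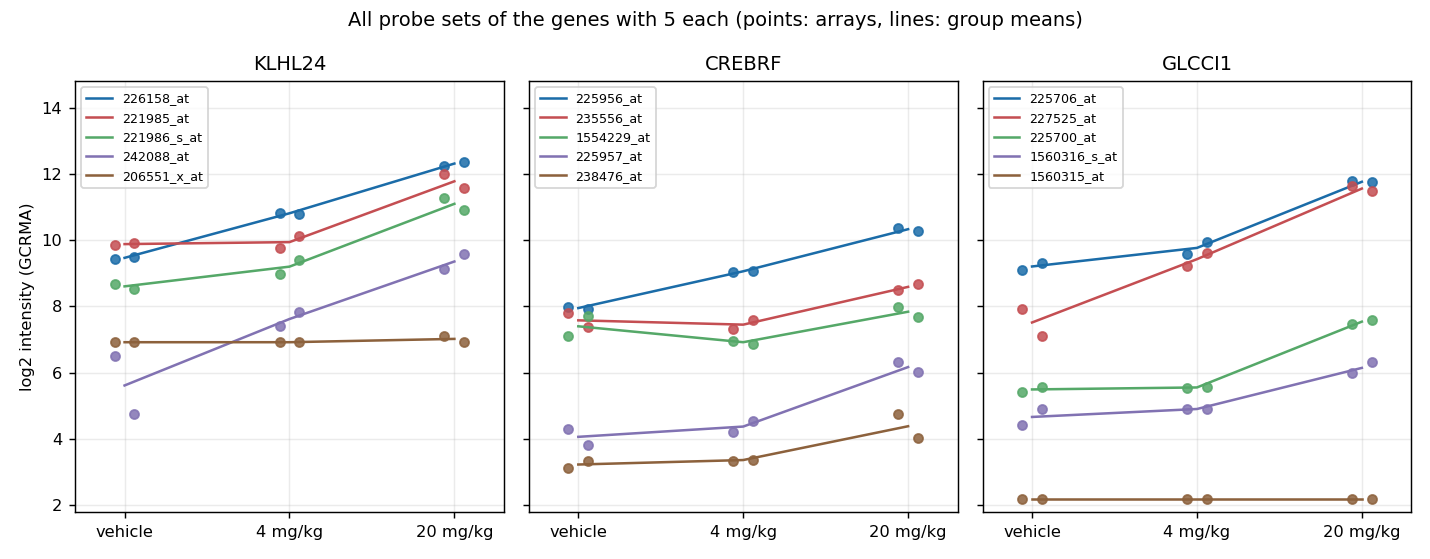
Log2 intensity of each of the 5 probe sets of KLHL24, CREBRF and GLCCI1 in the 6 arrays (points) with group means (lines), by dose. The 12 lines that climb by at least 1 unit do so from 4 to 20 mg/kg, but only 4 of them also climb by at least 1 unit from vehicle to 4 mg/kg.

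GTF2H2B and its copies share sequence, so its values are uncertain as those of a single gene. A probe set listed for GTF2H2C_2, GTF2H2C, GTF2H2B and GTF2H2 read 7.47 and 6.53 with vehicle, 8.60 and 8.75 at 4 mg/kg, then 8.79 and 8.60 at 20 mg/kg. It stood 1.68 above vehicle at the lower dose and 1.70 at the higher, a single step rather than a graded one. The set listed for GTF2H2B and GTF2H2 did the same at a lower reading, with 4.43 and 3.71, then 5.13 and 5.05, then 4.91 and 5.23. The third shared set, of GTF2H2C, GTF2H2B and GTF2H2, read 7.28 and 7.24 with vehicle and 6.78 and 7.15 at 20 mg/kg. None of the 3 shared sets thus had the graded order of the GTF2H2B set, and the difference between the sets was not tested.

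APOLD1 shares 1 probe set with DDX47, an RNA helicase gene. It read 10.86 and 10.94 with vehicle, 10.34 and 11.08 at 4 mg/kg, then 10.64 and 10.44 at 20 mg/kg, with a 20 mg/kg difference of -0.36. It is far brighter than the APOLD1 set and did not move with it. How much of either gene's RNA it reads was not tested.

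**Figure D4:**
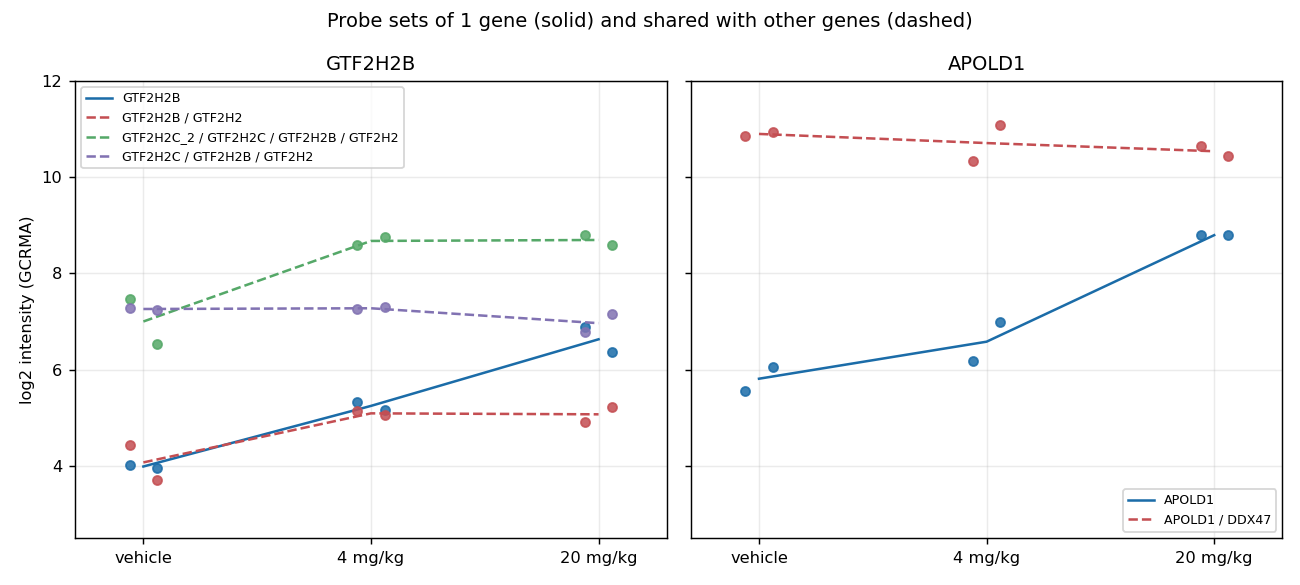
Log2 intensity in the 6 arrays (points) with group means (lines) for the probe sets of GTF2H2B and APOLD1 alone (solid) and for sets shared with other genes (dashed). The solid lines climb through both steps, to 2.64 and 2.98 above vehicle, whereas the 2 shared GTF2H2B sets that climb level off after 4 mg/kg and the set shared with DDX47 ends 0.36 below vehicle.

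Genes related to the 7 by family or function were examined in 10 lists of 148 genes, chosen with earlier results of these data known, of which 106 could be tested. limma, with Benjamini-Hochberg adjustment across all 10271 genes, called 12 of the 106 at 20 mg/kg against vehicle, 8 higher and 4 lower. This is 11.3% of them, while of all genes 2.26% were called higher and 2.07% lower. An unadjusted p under 0.05 in that comparison was reached by 39 of the 106, beside 2486 of all 10271 genes. Of the 12, 8 came from the glucocorticoid and FOXO lists, 4 from each. Calls were few between the other groups: over all genes 0.0292% were called higher and 0.0292% lower at 4 mg/kg against vehicle, and 0.127% and 0.243% at 20 against 4 mg/kg. The split moved with the scaling: 3 of 6 calls at 4 mg/kg were higher, beside 30 of 41 after quantile normalization and 11 of 17 with centred arrays, and 13 of 38 at 20 against 4 mg/kg, beside 151 of 333 after quantile normalization. The calls depended on single arrays. Each of the 12 calls was lost without 20 mg/kg replicate 2 and also on leaving out at least 1 other array. All 12 genes kept their direction each time.

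Around KLHL24, of 24 tested genes of the kelch-like family and its ligase, 1 fell, none rose and 23 did not pass, with a median log2 difference of 0.09. The gene that fell was ENC1, a kelch protein that binds actin in nerve cells, which read 10.25 and 10.18 with vehicle, 9.97 and 10.09 at 4 mg/kg, then 9.02 and 9.04 at 20 mg/kg. It was 2.27-fold lower at 20 mg/kg than with vehicle (log2 -1.18, SE 0.05, adjusted p = 0.012, limma) and also passed against 4 mg/kg (log2 -1.0, adjusted p = 0.0346). CUL3, the ligase scaffold itself, was at 0.30 (adjusted p = 0.296).

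KLHL28, another kelch-like gene, read 8.16 and 6.88 with vehicle, 9.13 and 9.55 at 4 mg/kg, then 9.98 and 10.11 at 20 mg/kg. Its groups followed the dose without overlap, but the vehicle arrays were 1.28 apart and the difference of 2.52 (SE 0.50) did not pass (adjusted p = 0.0886). KLHL20, an adaptor of the same ligase, was at 1.19 (adjusted p = 0.0994). KRT14, the keratin that KLHL24 targets in skin, read 13.75 and 14.27 with vehicle, 13.21 and 13.15 at 4 mg/kg, then 13.05 and 13.29 at 20 mg/kg. Both treated groups lay below vehicle, by 0.83 and 0.85 (SE 0.21), and neither difference passed (adjusted p = 0.212 and 0.124). Its partner KRT5 was at -0.22 and KRT15 at 0.15 at 20 mg/kg, with the vehicle arrays of KRT15 at 7.43 and 9.64. None of these 3 keratins of basal epithelium passed at 20 mg/kg in limma, and 1 had an unadjusted p under 0.05. Among the keratins of the tumour marker list KRT18 fell there as given above, while KRT7, KRT8 and KRT19 did not pass either. The difference of KRT14 was close to those of KRT8 (-0.88) and KRT7 (-0.92).

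Around CREBRF, none of 17 tested genes of the CREB3 family and the endoplasmic reticulum stress response passed at 20 mg/kg in limma, and 3 had an unadjusted p under 0.05. Their median log2 difference was 0.09. CREB3, the factor CREBRF binds, was at -0.44 (adjusted p = 0.386). The largest differences were in TRIB3, a pseudokinase induced by stress, at -0.96 (adjusted p = 0.232), and in HERPUD1, a protein of the degradation machinery for misfolded proteins, at 0.62 (adjusted p = 0.216). The chaperone HSPA5 was at 0.25 (adjusted p = 0.0508).

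Around GLCCI1, 13 genes of the glucocorticoid receptor and its targets could be tested, of which 1 rose and 3 fell at 20 mg/kg, with a median of -0.24. Those that fell were ERRFI1, a feedback inhibitor of the EGF receptor (log2 -1.96, SE 0.20), the transcription factor CEBPD (log2 -1.87, SE 0.18) and ANGPTL4, a lipase inhibitor (log2 -1.16, SE 0.03), with limma adjusted p of 0.035, 0.0326 and 0.0104. ANGPTL4 also fell at 4 mg/kg (log2 -1.09, adjusted p = 0.0485), but there and at 20 mg/kg its level was 3.60 to 3.67, near the lowest value, and with log2(value + 16) its 20 mg/kg difference was -0.61. It passed the level filter through its vehicle arrays, and with no level filter it was no longer called at 4 mg/kg. CDKN1C, a cell cycle inhibitor, rose (log2 0.81, SE 0.09, adjusted p = 0.0418), a call lost on leaving out any 1 of the 6 arrays. The calls of ERRFI1, CEBPD and ANGPTL4 were lost on leaving out some single arrays but not others. The receptor NR3C1 was at -0.26 (adjusted p = 0.318), and FKBP5 and TSC22D3, 2 standard reporters of its activity, were at -0.01 and -0.10 (adjusted p = 1 and 0.835). The paralogues FAM117A and FAM117B were at 0.54 and 0.52 (adjusted p = 0.283 and 0.15).

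Around GRAMD1C, 1 of 14 tested genes of sterol transport and sensing rose at 20 mg/kg, none fell, and the median was 0.00. It was ABCA1, which exports cholesterol, with 9.30 and 9.51 with vehicle, 9.32 and 9.29 at 4 mg/kg, then 10.62 and 10.63 at 20 mg/kg. Its level changed only at the higher dose (log2 1.23, SE 0.08, adjusted p = 0.021 against vehicle, and 1.32, adjusted p = 0.0431, against 4 mg/kg), while at 4 mg/kg it was at -0.10 (adjusted p = 0.576). The close paralogues of GRAMD1C were nearly level across the arrays: GRAMD1A was at -0.06 (adjusted p = 0.918) and GRAMD1B at -0.01 (adjusted p = 0.841).

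Around GTF2H2B, 2 of 8 tested TFIIH genes rose at 20 mg/kg and none fell, with a median of -0.06. They were the core subunit GTF2H1 (log2 0.54, SE 0.06, adjusted p = 0.0386) and the kinase CDK7 (log2 0.31, SE 0.04, adjusted p = 0.0475), the smallest differences among the 12 calls. The call of CDK7 was lost on leaving out any 1 array, with differences between 0.28 and 0.34. GTF2H3 read 8.29 and 7.61 with vehicle, 9.58 and 9.50 at 4 mg/kg, then 9.16 and 9.21 at 20 mg/kg. Its differences of 1.59 and 1.23 did not pass (adjusted p = 0.157 and 0.0936). Like 2 of the 3 probe sets shared with GTF2H2, it was higher in all treated arrays than in both vehicle arrays and no higher at 20 than at 4 mg/kg.

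For LRRC31, none of 6 tested genes of the epithelial IL-13 response passed at 20 mg/kg in limma (1 at an unadjusted p under 0.05). IL4R, a chain of the IL-13 receptor, was at -0.98 (adjusted p = 0.0997), and the mucin MUC5AC was at 1.91 (adjusted p = 0.46), with vehicle arrays at 6.09 and 3.06. For APOLD1, only APOL6 of the 6 APOL genes was bright enough to test, at 0.52 (adjusted p = 0.428). The summed intensity of the 15 endothelial markers ran from 600 to 650 with vehicle. It ran from 548 to 672 at 4 mg/kg and from 600 to 609 at 20 mg/kg. Of the 15, 11 lay within 1 unit of the lowest value on every array. Most of the sum came from PECAM1, which read 8.64 and 8.72 with vehicle. The probe sets are human and the hosts were mice, so the sum need not follow the vessels of the host. Whether APOLD1 RNA came from endothelium was not tested. PECAM1, KDR and FLT1, the 3 bright enough to test, were at -0.06, -0.05 and 0.00.

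Of 18 tested FOXO factors and targets 4 rose at 20 mg/kg, none fell and 14 did not pass, with a median of 0.73. FBXO32, which encodes a ubiquitin ligase, rose by log2 1.88 (SE 0.19) and CDKN1B, which restrains the cell cycle, by 1.84 (SE 0.14). BCL2L11, which promotes cell death, rose by 1.73 (SE 0.14) and SESN3, a stress-induced sestrin, by 1.48 (SE 0.12). Their limma adjusted p were 0.036, 0.0246, 0.026 and 0.0264. Steps differed here too. FBXO32 stood 0.16 above vehicle at 4 mg/kg and BCL2L11 0.21, whereas CDKN1B stood at 1.0 and SESN3 at 1.24, none past the test at that dose (adjusted p = 0.698, 0.558, 0.15 and 0.12). The calls of FBXO32 and SESN3, like those of CDKN1C and CDK7, were lost on leaving out any 1 array. Those of CDKN1B and BCL2L11 were lost on leaving out some single arrays but not others. With other choices of probe set the difference of FBXO32 ran from 0.91 to 2.81, and with the next brightest set BCL2L11 was at -0.06 and SESN3 at 0.19.

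**Figure D5:**
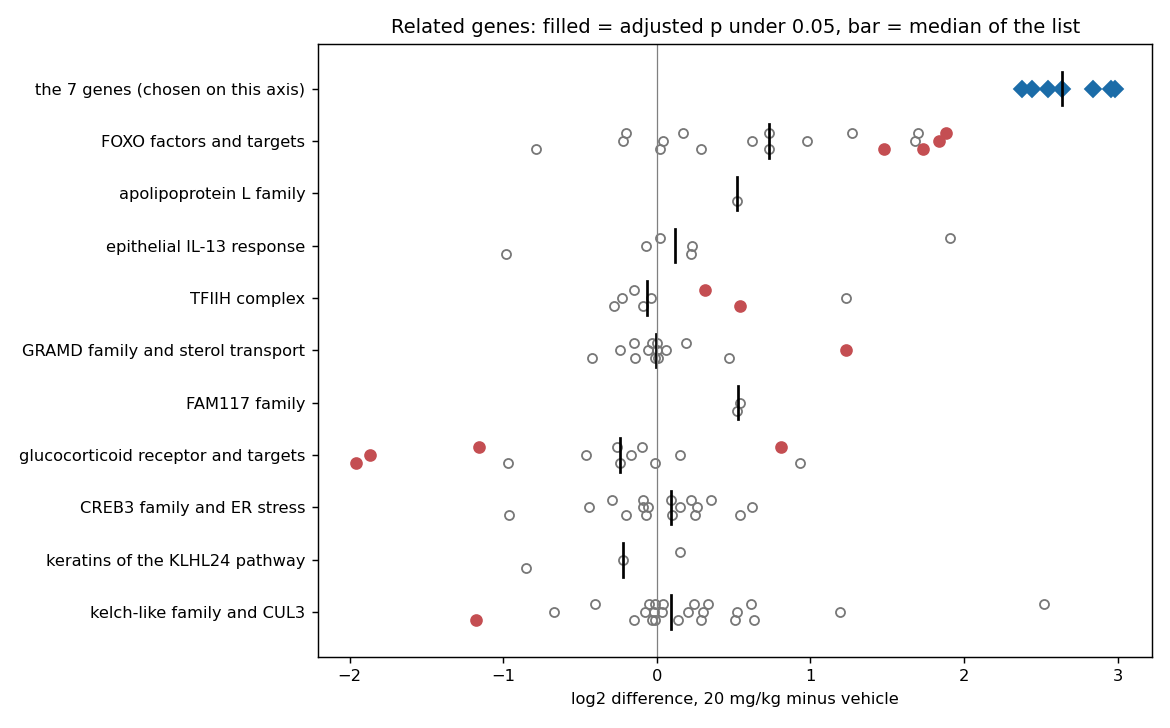
Log2 difference between 20 mg/kg and vehicle for each tested gene of the 10 lists (circles, filled where limma's adjusted p was under 0.05) and for the 7 genes (diamonds, chosen on this axis and not tested), with list medians as bars. List medians lie between -0.24 and 0.73, and KLHL28 at 2.52 is the 1 list gene that reaches the range of the 7.

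The genes whose profile over the 6 arrays was most like that of KLHL24 were found by the root mean square difference of log2 values after centring each gene on its mean. Outside the 7 the nearest was the collagenase gene MMP13, at 0.25 units, which read 9.73 and 10.11 with vehicle, 11.21 and 11.11 at 4 mg/kg, then 12.44 and 12.15 at 20 mg/kg. The transcription factor genes SOX2 and MAF followed at 0.34 each, then the polarity gene PARD6B at 0.35 and the co-chaperone gene DNAJC12 at 0.37. SOX2 and PARD6B had more of their difference at 4 mg/kg (1.68 of 2.44 and 1.64 of 2.39). MMP13 was also nearest to CREBRF (0.16) and GTF2H2B (0.19), and MAF to LRRC31 (0.15). The nearest gene to GLCCI1 was BMF, a cell death gene of the BCL2 family, at 0.22, which read 4.79 and 4.88, then 4.98 and 5.12, then 6.93 and 6.86. CLDN8, a tight junction gene, was nearest to GRAMD1C (0.42) and SYBU, a gene for a transport adaptor on microtubules, to APOLD1 (0.44). Among the 7 themselves CREBRF and LRRC31 were the closest pair, at 0.12, and LRRC31 and APOLD1 the farthest apart, at 0.52. These distances rest on 6 arrays in 3 groups and describe likeness of level only.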

How the data were processed

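RNA of NCI-H2228 tumours in mice was measured on 6 human expression arrays, 2 per group. The authors deposited intensity values on a linear scale, for which the submitters' processing notes name GCRMA and R 2.10.0. The GCRMA method corrects background by probe sequence, applies quantile normalization and summarises probes by median polish, which can give equal values on different arrays. The sources used here do not say which arrays were normalized together. The lowest intensity was 4.578 on every array, where between 39.48% and 40.19% of probe sets lay, so differences of dim genes are understated. The number of arrays limits the precision.

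Intensities were converted to log2. By the platform annotation, some of it possibly old, 41097 probe sets had 1 gene, 1801 several and 11777 none. A gene was represented by its brightest single-gene probe set, and the 10271 of 19775 genes with a mean log2 value of at least 4 were tested. limma 3.58.1 (lmFit, eBayes; R 4.3.3) fitted all 6 arrays together, with 3 two-sided contrasts and a Benjamini-Hochberg threshold of 0.05. It had 3 residual and 0.723 prior degrees of freedom. The script was tested on simulated data.

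The members and lists were chosen with earlier results of these data known. Named genes are the 7, up to 4 called genes per list (or the 2 with the largest difference where none passed), their paralogues, and the 5 genes nearest to KLHL24 and the 1 nearest to each other member. CUL3, CREB3, HSPA5, NR3C1, FKBP5, TSC22D3, KLHL28, KLHL20, GTF2H3 and the other keratins and the epithelial and endothelial markers were added after their values were seen. Of the 148 list genes, those without a single-gene probe set here, such as GTF2H2, were not analysed here. The planned genomic neighbours and promoter motifs needed human annotation and were not analysed here. Alternatives were no level filter, quantile normalization, centred arrays, log2(value + 16), other probe sets, the replicate number as a block and leaving out each array.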

Additional observations from a re-analysis of the deposited data

How the results depend on the processing

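The 7 genes kept their direction at 20 mg/kg against vehicle and at 20 against 4 mg/kg in every alternative run, and at 4 mg/kg in all but 1: CREBRF was at -0.13 with the next brightest probe set, and BCL2L11 at 20 mg/kg at -0.06. The dose order does not depend on the replicate block. In the other alternatives all 7 stayed in it except with the next brightest probe set (5 of 7, single-set genes keeping theirs) and when probe sets prone to cross-hybridise were dropped (6, since APOLD1 drops out). The median of the 7 against vehicle was 2.31 at 20 mg/kg and 0.76 at 4 mg/kg with log2(value + 16), and 2.44 and 0.80 with the mean of all probe sets; at 20 against 4 mg/kg it was 1.83 with the next brightest set. Leaving out single arrays it ran from 2.53 to 2.68, 1.01 to 1.16 and 1.49 to 1.57.

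Counts of calls were far less stable. At 20 mg/kg against vehicle limma called 445 genes and 12 list genes. It called 57 and 2 with no level filter, 998 and 20 with centred arrays, 1536 and 27 with quantile-normalized arrays, 207 and 6 with the next brightest set, 93 and 2 with the replicate block, and 285 genes without sets that may cross-hybridise. Leaving out single arrays gave 5 to 802 genes and 0 to 12 list genes; a group left with 1 array is assumed to vary like the others. At 4 mg/kg against vehicle it called 6 and 1. Here it called 3 and 0 with no level filter, 41 genes after quantile normalization, 17 with centred arrays, 0 and 0 with log2(value + 16) (1742 genes at an unadjusted p under 0.05), the next brightest set (1006), the mean of sets (1495) and the replicate block (1653), and 0 list genes without sets that may cross-hybridise. Leaving out single arrays gave 0 to 475 and 0 to 6. At 20 against 4 mg/kg it called 38 and 2. This became 8 and 0 with no level filter, 124 and 5 with centred arrays, 333 and 11 with quantile-normalized arrays, 20 and 0 with the next brightest set, 0 and 0 with the replicate block (1472 at an unadjusted p under 0.05), and 1 list gene with the mean of sets. Leaving out single arrays gave 0 to 218 and 0 to 3. The cause was not tested. Same-numbered arrays deviated together at r = 0.15, -0.12 and 0.13 across genes. These values show no clear shared effect of the number, but they cannot exclude a pairing of the samples. The neighbour alternatives were not run.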
